A study of Sus scrofa with 6 samples.

Results

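Among 31908 Ensembl genes with deposited values, 9 make up the muscle's machinery for glycogen and its best known regulators of meat quality, and they were taken by their symbols: UGP2, GYG1, GYS1 and GBE1, which build glycogen, PYGM, PHKA1 and PHKG1, which break it down, and PRKAG3 and PPP1R3C, which regulate the balance. All 9 genes were found, with 38 transcripts between them. Expression was read in longissimus dorsi (LD), a long back muscle, of 3 Laiwu pigs with extremely high intramuscular fat (IMF) content (S-H: LW63, LW70 and LW119) and 3 with extremely low IMF content (S-L: LW82, LW88 and LW90), 1 library per pig. According to the study, the pigs were castrated males, and sex, carcass weight and IMF content were considered when they were picked from a larger number of slaughtered pigs. No treatment or genotype is named for either group, and ages are not given in the sources used here. The groups were defined by a measured trait. Positions are given on assembly Sscrofa11.1, as the deposited table has them.

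Glycogen is the glucose store of muscle. UDP-glucose made by UGP2 is the building block, glycogenin (GYG1) starts the chain, glycogen synthase (GYS1) lengthens it, and the branching enzyme (GBE1) adds the branches. Phosphorylase (PYGM) releases glucose 1-phosphate after phosphorylase kinase, an enzyme of several subunits that include PHKA1 and PHKG1, has activated it. After slaughter this store is turned into lactate, so the amount of glycogen sets how far the pH of the meat drops, and inherited changes in PRKAG3 and in PHKG1 are known in pigs to alter muscle glycogen and meat quality.

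The values are FPKM, fragments per kilobase of transcript scaled to the library's total, which can be compared between genes because they are relative to transcript length. They summed to between 638536 (LW119) and 846661 (LW82) per library, and between 44552 and 48568 transcripts per library were above 0. The counts behind them were not used here, so the depth of a single value is unknown. S-H was compared with S-L by limma on log2(FPKM + 0.1) across 12740 protein-coding genes. Calls required an unadjusted p below 0.01 together with a log2 fold change of 1 or more in either direction, the thresholds of the study. The study applied these thresholds in edgeR, a different test, so the calls here need not match its own. Fold changes on the log2(FPKM + 0.1) scale understate those of weakly expressed genes. Over all tested genes the median log2 fold change was 0.21, so that a typical gene was slightly higher in S-H, and after division by median-ratio size factors this median was 0.0063. The calls, 149 higher and 24 lower in S-H, split 84 to 55 with those factors, 69 to 62 with quantile normalization, 118 to 57 when scaled to muscle markers and 246 to 14 in TPM. No gene had an adjusted p below 0.05, and 1039 had an unadjusted p below 0.05 (limma). Over the 19 alternative settings between 0 and 40 genes had an adjusted p below 0.05, the 40 when scaled to muscle markers and 9 with the transcript of the highest mean, and no more than 4 elsewhere. The skeletal muscle markers (7 of 10 matched by symbol, among them CKM and DES) summed to between 6538 and 13724 FPKM and none was at 0. The adipocyte markers (8 of 8 matched) summed to between 451.8 and 1303 FPKM in S-H and between 255.1 and 377.5 FPKM in S-L, and 6 of the 8 were called, all higher in S-H. In bulk muscle, fewer cells of one type and less RNA per cell cannot be told apart.

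None of the 9 genes was called between S-H and S-L, where 1.36% of all tested genes were. All 9 passed the minimum of a mean of 0.1 FPKM. The lowest adjusted p among them was 0.614 (PYGM, limma with Benjamini-Hochberg adjustment over all tested genes), and none had an unadjusted p below 0.05. A log2 fold change below 0 was found for 6 of 9 members and for 25.9% of all tested genes, and the median over the 9 was -0.09. With median-ratio size factors it was 7 of 9 members and 49.1% of all tested genes, and in TPM 3 of 9 members and 16.5%. PYGM alone had no overlap between the groups, lower in S-H, but GYS1 joined it with median-ratio size factors and UGP2 with quantile normalization, and in TPM no member did. This pattern was found in 1.70% of all tested genes, and 14.8% had no overlap in either direction. The 95% intervals of the log2 fold changes were wide, from -0.47 to 0.52 for GYS1, the narrowest, and from -0.89 to 1.37 for PHKG1, the widest, so that differences within these bounds could not be told from none with 3 pigs in each group.

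**Figure D1:**
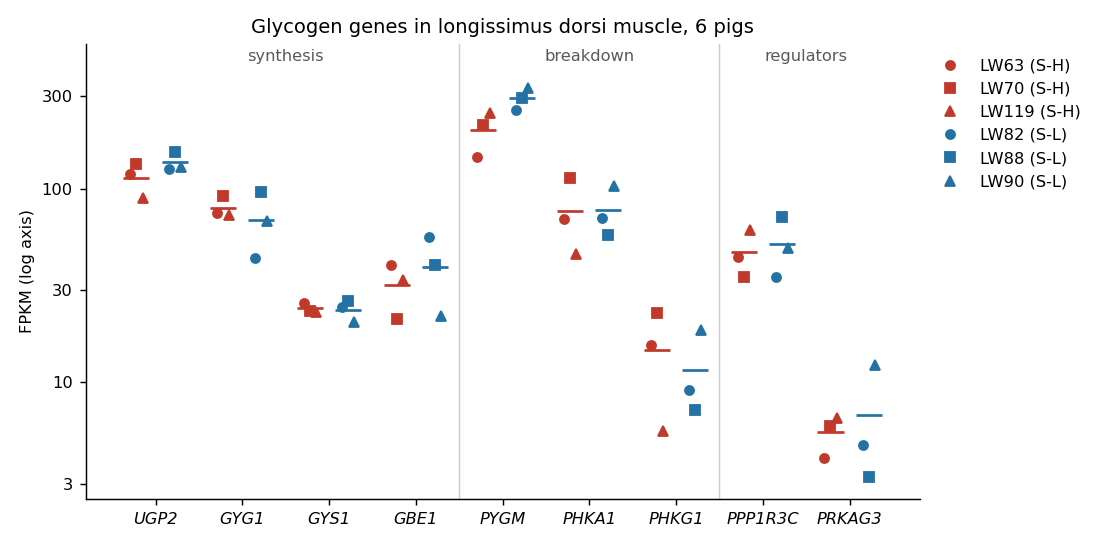
FPKM of the 9 glycogen genes (log axis) in each of the 6 pigs, S-H in red and S-L in blue, with a horizontal line at the group mean. PYGM is the one gene whose S-H pigs (145.1 to 245.1 FPKM) all lie below the S-L pigs (256.2 to 332.0 FPKM), and GYS1 has the tightest points.

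Among the enzymes of synthesis, UGP2 (chr3:77975440-78031731), the pyrophosphorylase that forms UDP-glucose, was the most abundant. It had 119.2, 134.5 and 89.3 FPKM in LW63, LW70 and LW119, and 126.9, 155.1 and 129.8 FPKM in LW82, LW88 and LW90. The S-L pigs were the higher on average, but LW70 lay above LW82 and LW90, so the groups overlapped. The log2 fold change was -0.28 (SE 0.25, 95% interval -0.84 to 0.28, adjusted p of 0.748 from limma).

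GYG1 (chr13:89221149-89259815), the self-glucosylating primer on which a glycogen particle is built, had 75.1, 92.1 and 72.9 FPKM in LW63, LW70 and LW119. In the S-L pigs it had 44.1 FPKM in LW82, 95.8 in LW88 and 67.8 in LW90. The spread within S-L covered the whole S-H range, and the log2 fold change of 0.27 (SE 0.30, 95% interval -0.40 to 0.95, adjusted p of 0.797 from limma) was close to the median of all tested genes.

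GYS1 (chr6:54233050-54250261), the muscle glycogen synthase and the rate-setting enzyme of synthesis, was the steadiest member on the FPKM scale. Its mean was 24.1 ± 1.34 FPKM (SD, n = 3) for the S-H pigs and 23.8 ± 2.99 FPKM (SD, n = 3) for the S-L pigs. The 6 values were 25.6, 23.4 and 23.2 FPKM in LW63, LW70 and LW119, and 24.6, 26.2 and 20.4 FPKM in LW82, LW88 and LW90. Its highest pig (LW88, 26.2 FPKM) was 1.28 times its lowest (LW90, 20.4 FPKM), whereas the same ratio lay between 1.74 and 4.07 for the other members. Such ratios between pigs depend on the scaling between libraries, so this ranking need not hold in TPM. The log2 fold change was 0.03 (SE 0.22, adjusted p of 0.977 from limma), and it turned to -0.19 with median-ratio size factors.

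GBE1 (chr13:173634454-173976255), which adds the side branches, had 40.4, 21.2 and 33.7 FPKM in LW63, LW70 and LW119, and 56.3, 40.2 and 22.1 FPKM in LW82, LW88 and LW90. The lowest pigs of both groups, LW70 and LW90, were nearly level, so the groups overlapped widely. The log2 fold change was -0.27 (SE 0.37, 95% interval -1.09 to 0.56, adjusted p of 0.846 from limma).

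PYGM, the muscle form of glycogen phosphorylase and the most abundant of the 9 genes, had 145.1 FPKM in LW63, 214.8 in LW70 and 245.1 in LW119, against 256.2 in LW82, 295.9 in LW88 and 332.0 in LW90. The mean was 201.7 ± 51.3 FPKM (SD, n = 3) for the S-H pigs and 294.7 ± 37.9 FPKM (SD, n = 3) for the S-L pigs, a ratio of 0.684. The gap between the groups was small beside the spread within S-H, since LW119 lay just under LW82 and LW63 far below both. Its log2 fold change of -0.57 (SE 0.28, 95% interval -1.19 to 0.05) did not pass the thresholds (unadjusted p of 0.0665, adjusted p of 0.614 from limma). Without LW63 it was -0.35, and without LW119 it was -0.73. With the median-ratio size factors it was -0.79 (unadjusted p of 0.0416 from limma), and on the TPM scale, where the median of all genes was 0.35, it was -0.44 and the groups overlapped.

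Fibre-type markers were read beside PYGM. Of the fast fibre markers, 7 of 10 matched, all 7 had a log2 fold change below 0 with a median of -0.55, and 1 was called, lower in S-H (PVALB, the calcium buffer parvalbumin). All 8 slow fibre markers had a log2 fold change above 0 with a median of 0.47, and none was called. Of all 12740 tested genes, 9443 lay above 0 and 3297 below, the median was 0.21 and 1.36% were called. These background signs depend on the scaling between libraries. The unmatched fast fibre markers were MYH1, MYH2 and MYH4. The summed fast fibre markers lay between 11780 and 17844 FPKM in S-H and between 13785 and 30115 FPKM in S-L. In that sum, TNNI2 alone ranged from 30.6 FPKM in LW82 to 4451.5 FPKM in LW90, both S-L pigs. The summed slow fibre markers lay between 9183 and 10838 FPKM in S-H and between 6161 and 9548 FPKM in S-L, so that both sums overlapped. The part of the fibre-type markers in the PYGM values was not tested.

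PHKA1 (chrX:58455938-58583216), the regulatory alpha subunit of phosphorylase kinase in muscle, had 70.2, 113.5 and 46.0 FPKM in LW63, LW70 and LW119, and 70.8, 57.5 and 104.0 FPKM in LW82, LW88 and LW90. The highest pig, LW70, and the lowest, LW119, were both in S-H. The mean was 76.6 ± 34.2 FPKM (SD, n = 3) for the S-H pigs and 77.4 ± 23.9 FPKM (SD, n = 3) for the S-L pigs, and the log2 fold change was -0.07 (SE 0.36, adjusted p of 0.960 from limma).

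PHKG1 (chr3:16822043-16834329), the catalytic gamma subunit of the same kinase in muscle, had 15.7 FPKM in LW63, 22.9 in LW70 and 5.61 in LW119, and 9.15 FPKM in LW82, 7.19 in LW88 and 18.6 in LW90. On the FPKM scale it varied more between the 6 pigs than any other member, with a 4.07-fold range. This ranking also depends on the scaling between libraries. The highest and the lowest pig were both in S-H. The log2 fold change was 0.24 (SE 0.51, adjusted p of 0.906 from limma). LW70 and LW90 were the 2 highest pigs for PHKA1 and also for PHKG1, and the FPKM of PHKG1 was between 0.122 and 0.223 of that of PHKA1.

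Of the regulators, PPP1R3C (chr14:103273401-103278763), a subunit that brings protein phosphatase 1 to the glycogen particle, had 44.6, 35.1 and 61.4 FPKM in LW63, LW70 and LW119, and 35.02, 71.2 and 49.7 FPKM in LW82, LW88 and LW90. The groups covered almost the same range, and the log2 fold change was -0.12 (SE 0.32, adjusted p of 0.920 from limma).

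PRKAG3 (chr15:120855194-120866332), the gamma subunit of AMP-activated protein kinase (AMPK) that is found in fast muscle fibres, was the least abundant member. It had 4.06, 5.94 and 6.54 FPKM in LW63, LW70 and LW119, and 4.74, 3.23 and 12.3 FPKM in LW82, LW88 and LW90. The highest and the lowest value were both in S-L, and the log2 fold change was -0.09 (SE 0.44, 95% interval -1.08 to 0.90, adjusted p of 0.959 from limma). Its sign rested on single pigs, since the log2 fold change was 0.46 without LW90 and 0.11 without LW63. PRKAG3 made up between 11.5% and 22.8% of the summed FPKM of the 3 AMPK gamma subunits in S-H and between 8.07% (LW88) and 36.7% (LW90) in S-L.

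**Figure D2:**
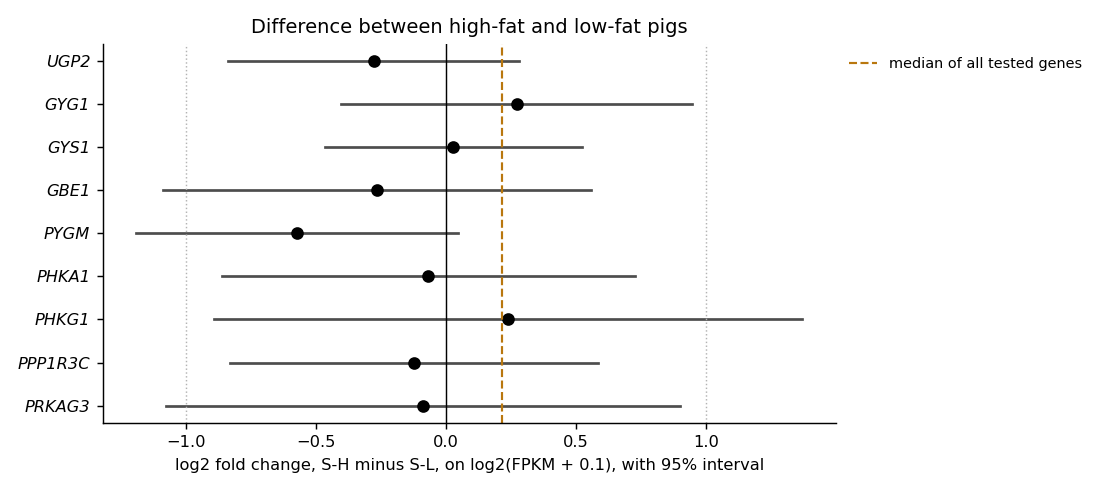
Log2 fold change of the 9 members, S-H minus S-L, on the log2(FPKM + 0.1) scale (points) with the 95% interval from limma (lines), the dashed line at 0.21 for the median of all tested genes and dotted lines at the thresholds of -1 and 1. Every interval includes 0, and PYGM (-0.57) lies farthest from it.

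By mean FPKM over the 6 pigs the order was PYGM (248.2), UGP2 (125.8), PHKA1 (77.0), GYG1 (74.6), PPP1R3C (49.5), GBE1 (35.7), GYS1 (23.9), PHKG1 (13.2) and PRKAG3 (6.14). PYGM was above UGP2 in each of the 6 pigs, although its lowest pig (145.1 FPKM) was below the highest of UGP2 (155.1 FPKM). The ranges over the 6 pigs overlapped for every pair of neighbours in this order. The FPKM of PYGM was 5.66, 9.17 and 10.6 times that of GYS1 in LW63, LW70 and LW119, and 10.4, 11.3 and 16.2 times in LW82, LW88 and LW90. This ratio within a library does not depend on the scaling between libraries, and the groups overlapped, since LW119 lay just above LW82 (exact two-sided permutation test, p = 0.20, where 0.10 is the lowest p this design can give).

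The 9 genes differed in how their FPKM was divided between transcripts. Of their 38 transcripts, 32 reached a mean of 0.1 FPKM and were tested, and none was called, where 1.25% of all tested transcripts were. PHKG1 and PPP1R3C had a single transcript each. GBE1 was dominated by GBE1-202, which held between 84.2% and 89.3% of the gene's FPKM in every pig, and UGP2 by UGP2-202, with between 70.1% and 85.6%, beside UGP2-201 with between 10.1% and 25.9%. The other 5 genes also had 2 or more transcripts that each held at least 10% of the gene's mean FPKM, and their main transcript was not the same in every pig. All transcript values here are estimates made by the authors. How reads were divided between overlapping transcripts of the same gene was not tested, so a changed share need not mean changed transcript use.

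PYGM was split between PYGM-207 and PYGM-201. PYGM-207 had 29.5 FPKM in LW63, 155.3 in LW70, 220.9 in LW119, 20.6 in LW82, 261.7 in LW88 and 52.9 in LW90. PYGM-201 had 104.3 FPKM in LW63, 57.6 in LW70, 8.55 in LW119, 224.4 in LW82, 5.83 in LW88 and 235.6 in LW90. Thus PYGM-207 was the main transcript in LW70, LW119 and LW88 and PYGM-201 in LW63, LW82 and LW90, and this division crossed the IMF groups. With PYGM-207, the transcript of the highest mean, in place of the gene, the log2 fold change was 0.61 (SE 1.09), above 0 where that of the whole gene was below.

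The position of these transcripts bears on what the PYGM value holds. On assembly Sscrofa11.1 the gene lies at chr2:7391064-7421261 in the deposited table, while RefSeq on the same assembly places PYGM at chr2:7409330-7421256 and a second gene, SF1, a splicing factor, at chr2:7391295-7404693. No transcript in the table carries the symbol SF1. PYGM-201 (chr2:7391064-7421239) runs across the SF1 interval and almost to the end of PYGM, PYGM-207 (chr2:7409684-7421256) lies within RefSeq PYGM, and PYGM-202 and PYGM-203 lie outside it, within or around SF1. PYGM-202 was listed at 0 in every pig and PYGM-203 had between 1.91 and 8.48 FPKM, so these transcripts gave between 0.887% and 3.56% of the gene's FPKM. Without them the log2 fold change of PYGM was -0.57, as with them. PYGM-201 held between 1.97% and 87.6% of the FPKM, and how many of its reads came from the SF1 end was not tested.

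**Figure D3:**
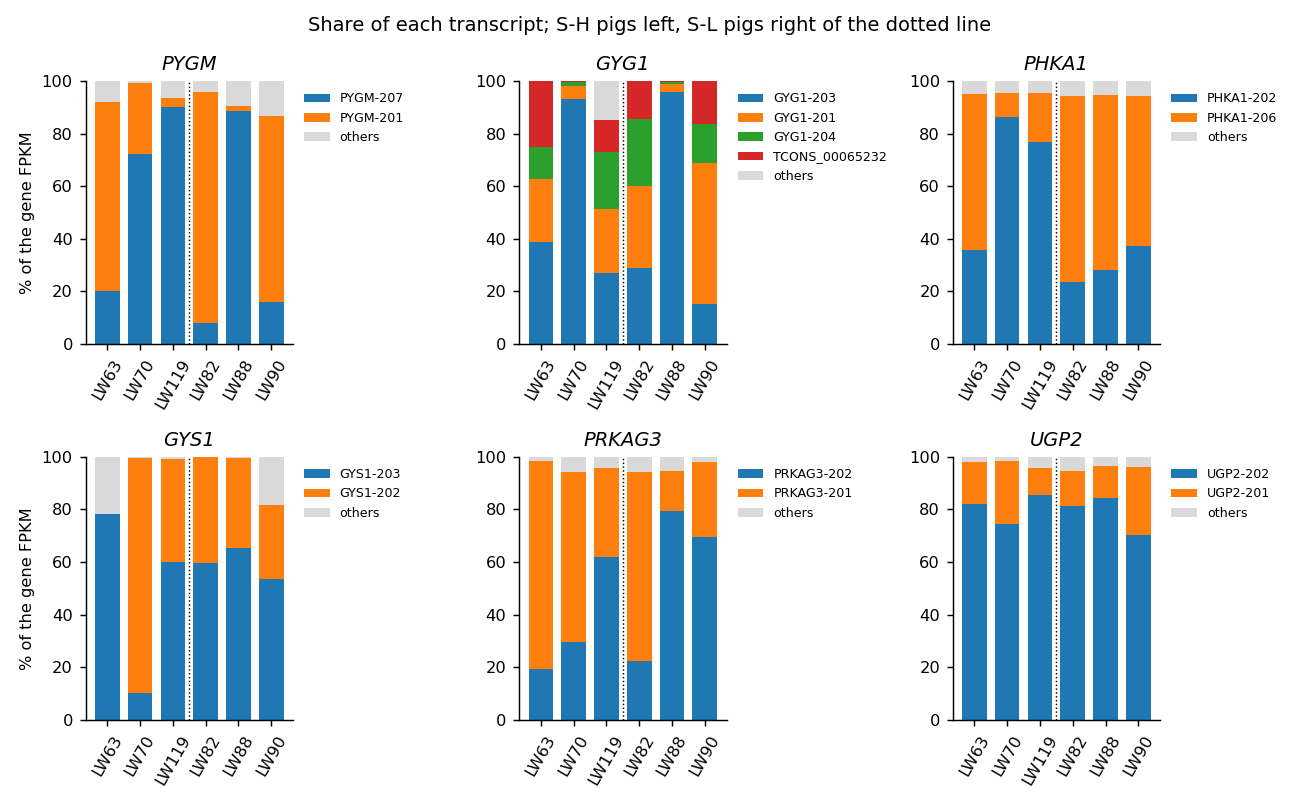
Share of the gene's FPKM in each transcript (percent, stacked to 100) for 6 members in the 6 pigs, S-H left and S-L right of the dotted line, with transcripts of under 5% of the mean in grey. PYGM-207 holds between 72.3% and 90.1% in LW70, LW119 and LW88 and between 8.05% and 20.3% in the others, whereas UGP2 keeps the same main transcript throughout.

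GYG1 showed a similar division over other pigs. GYG1-203 held 93.3% of its FPKM in LW70 and 96.0% in LW88, but between 15.1% (LW90) and 38.7% (LW63) in the other 4 pigs, in which GYG1-201, GYG1-204 and the assembled transcript TCONS_00065232 shared most of the rest. GYG1-202 was above 0 in LW119 alone, at 10.8 FPKM. The gene as a whole was nevertheless between 44.1 and 95.8 FPKM in all pigs.

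In PHKA1 the 2 main transcripts leaned with the groups without separating them. PHKA1-206 had 41.6, 10.7 and 8.60 FPKM in LW63, LW70 and LW119, and 50.2, 38.1 and 59.6 FPKM in LW82, LW88 and LW90. LW63 lay above LW88, so the groups overlapped, and the log2 fold change of -1.62 (SE 0.60) was not called (unadjusted p of 0.0311, adjusted p of 0.848 from limma over all tested transcripts). PHKA1-202 had the opposite tendency, at 25.1, 97.8 and 35.3 FPKM in LW63, LW70 and LW119 and 16.8, 16.2 and 38.6 FPKM in LW82, LW88 and LW90 (log2 fold change 1.01, SE 0.58, adjusted p of 0.859 from limma). Without LW63, PHKA1-206 passed the thresholds of the test.

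UGP2-203, a transcript of a shorter span with 3.42% of the UGP2 FPKM, was the only transcript of the 9 genes whose groups did not overlap, and 11.3% of all tested transcripts had no overlap. It had 2.23, 2.24 and 3.79 FPKM in LW63, LW70 and LW119, and 6.65, 5.68 and 5.23 FPKM in LW82, LW88 and LW90. Its log2 fold change was -1.10 (SE 0.32), just outside the threshold for p (unadjusted p of 0.0112, adjusted p of 0.805 from limma). It was called with a pseudocount of 0.01, with a minimum mean of 1 FPKM, with median-ratio size factors and without LW119, and in none of the other 6 transcript settings tried.

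The estimated FPKM of GYS1 was split differently between its transcripts from pig to pig. GYS1-203 held 78.0% of the FPKM in LW63, where GYS1-202 was listed at 0, and 10.1% in LW70, where GYS1-202 held 89.5%. The other 4 pigs lay between, with 53.5% to 65.1% in GYS1-203. PRKAG3 was divided between PRKAG3-202, with 19.3% to 61.9% of its FPKM in S-H and 22.3% to 79.4% in S-L, and PRKAG3-201, with 33.9% to 79.1% in S-H and 15.3% to 71.9% in S-L.

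Other deposited transcripts lay across 3 of these loci. Within or beside GBE1 were an unnamed Ensembl gene of 0.327 to 3.75 FPKM and 2 assembled antisense transcripts of at most 0.2999 FPKM, and an assembled transcript antisense to PHKG1 had between 0.322 and 0.607 FPKM in S-H and between 0.159 and 0.538 FPKM in S-L. PHKG1 also overlaps the RefSeq gene SUMF2 and an unnamed Ensembl gene, which overlap each other as well. No deposited transcript carries the symbol SUMF2, and whether both annotations are the same gene was not tested. The most abundant overlapping transcript of that unnamed gene had between 1.07 and 1.80 FPKM in S-H and between 0.889 and 1.01 FPKM in S-L. UGP2 overlaps the edge of the RefSeq gene VPS54. PHKA1 overlaps another unnamed Ensembl gene that had between 2.46 and 5.95 FPKM in its most abundant transcript. The libraries kept strand information according to the methods, and how reads were shared where genes overlap was not tested.

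A list of 32 other glycogen pathway genes gave 28 matched by symbol and 27 tested, and EPM2A, STBD1, GSK3A and CALM2 were not analysed here. Of the 27, 3 were called, all higher in S-H, beside the 1.36% of all tested genes. By sign, 19 had a log2 fold change above 0 and 8 below, and the median was 0.31 beside 0.21 for all tested genes. None of the 6 other AMPK subunits was called, and their median was 0.04.

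PPP1CB, the beta catalytic subunit of protein phosphatase 1, which PPP1R3C and its relatives bring to glycogen, had the lowest p of the listed genes. It had 131.5, 158.9 and 131.1 FPKM in LW63, LW70 and LW119, and 48.3, 40.7 and 47.5 FPKM in LW82, LW88 and LW90. Each S-H pig was far above each S-L pig, with means of 140.5 ± 16.0 FPKM and 45.5 ± 4.16 FPKM (SD, n = 3 each). Its log2 fold change was 1.62 (SE 0.23, 95% interval 1.12 to 2.13), with an adjusted p of 0.0789 from limma (3.1e-05 unadjusted), and the lowest adjusted p of all genes was 0.0762. It was called in all 19 other settings tried, with log2 fold changes from 1.403 to 1.76 and adjusted p from 0.0606 to 0.458 (limma). The related subunits PPP1CA and PPP1CC were not called, at log2 fold changes of 0.49 and -0.21, nor was the muscle targeting subunit PPP1R3A at -0.20.

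PYGL, the liver form of phosphorylase, had 10.6, 6.76 and 8.80 FPKM in LW63, LW70 and LW119, and 3.96, 4.59 and 2.22 FPKM in LW82, LW88 and LW90. Its log2 fold change was 1.29 (SE 0.32, unadjusted p of 0.00247, adjusted p of 0.535 from limma). GYG2, the liver form of glycogenin, had 4.51, 1.62 and 2.07 FPKM in LW63, LW70 and LW119, and 1.04, 1.08 and 0.586 FPKM in LW82, LW88 and LW90, with a log2 fold change of 1.41 (SE 0.41, unadjusted p of 0.00671, adjusted p of 0.554 from limma). In both genes every S-H pig lay above the S-L pigs. PYGL was called in 15 and GYG2 in 10 of the 19 other settings. Neither passed the thresholds without LW63, without LW90, with muscle marker scaling or with the transcript of the highest mean. GYG2 was also lost without LW82, without LW88, with a pseudocount of 1, with no minimum and with quantile normalization, and PYGL turned to -0.29 when its most abundant transcript stood for the gene. The adipocyte markers were higher in the same pigs, with the largest sum in LW63 (1303 FPKM) and the smallest in LW90 (255.1 FPKM), and their part in these values was not tested.

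**Figure D4:**
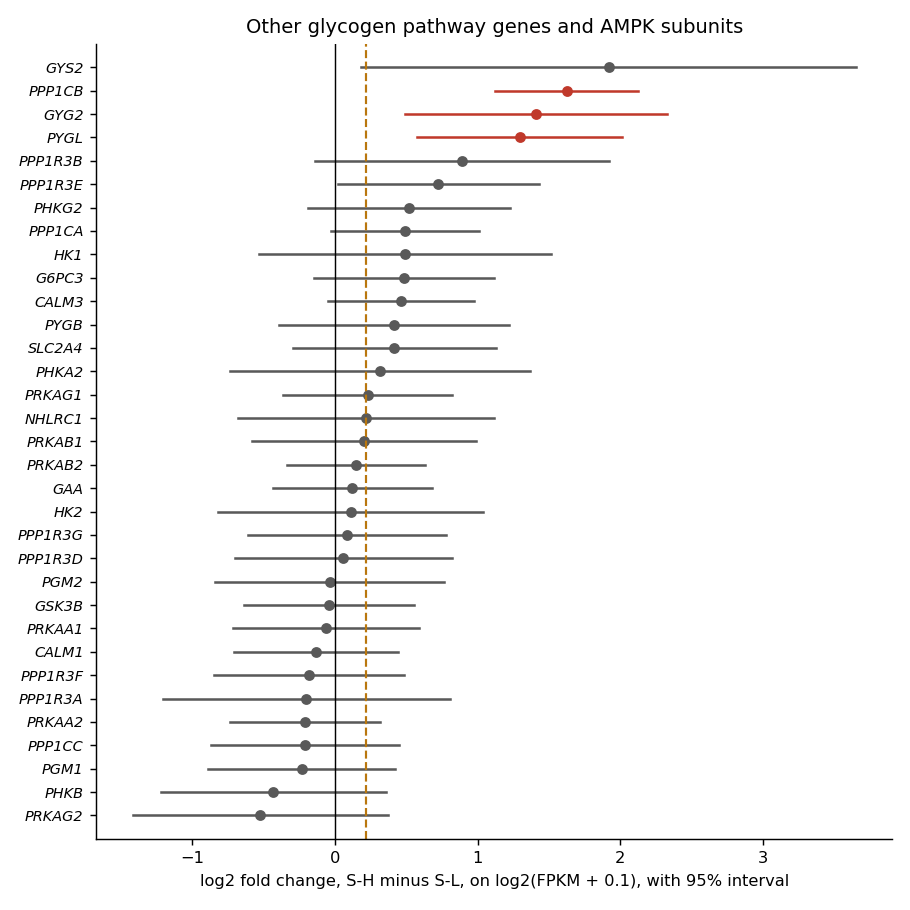
Log2 fold change, S-H minus S-L, on the log2(FPKM + 0.1) scale with the 95% interval from limma, for the tested genes of the other pathway list and the other AMPK subunits, called genes in red and the median of all tested genes dashed. PPP1CB has the narrowest interval among the called genes (1.12 to 2.13), and GYS2 the widest of all.

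Another 5 of the 27 tested genes had all S-H pigs above all S-L pigs without being called. They were PYGB, the brain phosphorylase (log2 fold change 0.42), PPP1R3E, another targeting subunit (0.72), PPP1CA (0.49), G6PC3, a glucose 6-phosphatase (0.49), and the calmodulin gene CALM3 (0.46), whose product is also the delta subunit of phosphorylase kinase. Their adjusted p lay between 0.608 and 0.738 (limma). No overlap in either direction was found for 8 of the 27 tested genes, all higher in S-H, and for none of the AMPK subunits, against the 14.8% of all tested genes given above.

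For 5 enzymes the muscle member could be set beside the form known best from liver within the same library, a share free of the scaling between pigs. PYGL made up 6.80%, 3.05% and 3.47% of PYGM and PYGL together in LW63, LW70 and LW119, and 1.52%, 1.53% and 0.664% in LW82, LW88 and LW90. All S-H shares lay above the S-L shares (p = 0.10 in the exact two-sided permutation test, its lowest possible value here). This outcome was fixed by the separations already given, PYGL higher and PYGM lower in S-H, so it is no further support. GYG2 made up 3.38% ± 2.04 (SD, n = 3) of the glycogenin pair for the S-H pigs and 1.42% ± 0.770 (SD, n = 3) for the S-L pigs, and LW82 (2.30%) lay above LW70 (1.73%). GYS2, the liver glycogen synthase, made up 5.86% of the GYS pair in LW63 and 2.94% in LW119 but 0.200% in LW70, and at most 0.416% in S-L, where it was listed at 0 in LW90. Its log2 fold change was 1.92 (SE 0.78, unadjusted p of 0.0337, adjusted p of 0.607 from limma) and was not called. With muscle marker scaling and without LW70 it passed the thresholds. The shares of PHKA2 and PHKG2 overlapped widely, at 0.286% to 1.30% and 8.39% to 31.2% in S-H and 0.3002% to 1.14% and 5.20% to 22.02% in S-L.

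**Figure D5:**
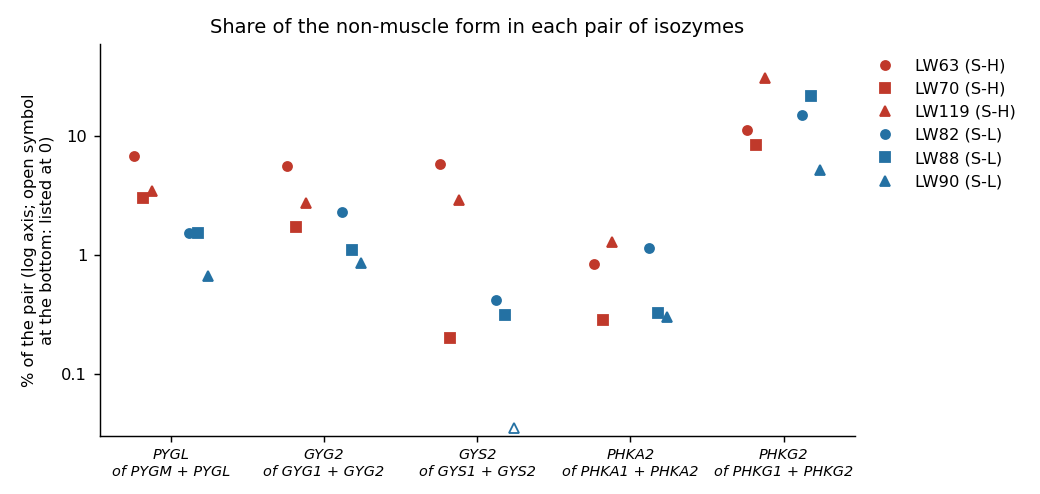
Share of the liver-type form in the summed FPKM of 5 pairs of isozymes (percent, log axis) in each pig, S-H in red and S-L in blue, with an open symbol at the bottom for a gene listed at 0. For PYGL the S-H pigs (3.05% to 6.80%) all lie above the S-L pigs (0.664% to 1.53%), and the other pairs overlap.

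The genes most like 3 of the members were found by the root mean square difference between log2(FPKM + 0.1) profiles over the 6 pigs, each centred on its own mean, among 11487 other tested genes with a symbol. Nearest to PYGM were DUSP8, a phosphatase of MAP kinases (difference 0.05), the transcription factor NFATC1 (0.10) and PDLIM7, a LIM protein of the cytoskeleton (0.10), where the spread of PYGM about its own mean was 0.38. DUSP8 had 2.0005, 2.92 and 3.22 FPKM in LW63, LW70 and LW119 and 3.4996, 4.34 and 4.78 FPKM in LW82, LW88 and LW90, the same order of pigs as PYGM. Nearest to PHKG1 were ASB11 (0.18), the calcium-binding protein gene HRC (0.20) and MYLK2, the myosin light chain kinase of skeletal muscle (0.21), beside a spread of 0.73. Nearest to PRKAG3 were the scaffold gene HOMER1 (0.13), CD3G (0.14) and KRT80 (0.19), beside a spread of 0.60, and HOMER1 had 112.3 FPKM in LW90 and 37.8 in LW88, while CD3G and KRT80 were at most 0.334 FPKM. With 6 pigs and this many genes, close profiles are a description only.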

How the data were processed

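RNA of LD muscle from 6 pigs, 3 in S-H and 3 in S-L, was sequenced, and each pig was 1 replicate. As the methods describe, the authors depleted ribosomal RNA, aligned reads with Hisat2 to Sus scrofa 11.1 and quantified transcripts with StringTie. The deposited values are FPKM per transcript made by the authors, but 21104 Ensembl transcripts without a symbol are on the TPM scale. These were multiplied by 1 factor per library (0.639 to 0.847) that follows from the sums of both kinds; no member was affected. FPKM were summed over the rows sharing a gene identifier. Gene type came from RefSeq on Sscrofa11.1, by symbol (13901 genes) or by a reciprocal overlap of at least 50% (4666 genes). Genes with a mean of at least 0.1 FPKM were fitted with limma 3.58.1 (variance trend) in R 4.3.3, and the fit was tested on simulated data. Ratios and figures used Python 3.11.15, numpy 2.4.6, pandas 2.3.3, scipy 1.17.1 and matplotlib 3.10.9. The ratios, isozyme shares and transcripts at the loci were examined after the values were known.

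The members, the pathway and marker lists and the tests were chosen with earlier results of these data known. Named genes were the 9 members, their transcripts of at least 10% of the gene or without overlap, listed genes that were called or did not overlap, and the 3 nearest profiles. PPP1R3A, PPP1CC, GYS2, PHKA2 and PHKG2 were added after their values were seen, as were the smaller transcripts described. Endothelial, fibroblast and immune marker lists gave 0 called genes of 6, 5 and 6 tested. The depth behind each FPKM is unknown, and the precision is given by the spread between pigs. Sequences of these genes were not used here. A listed gene outside the test is not reported here.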

Additional observations from a re-analysis of the deposited data

How the results depend on the processing

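No member was called in any of the 19 other gene-level settings. UGP2 was below 0 in all 19 and PYGM in 18. The lowest unadjusted p of each came with quantile normalization, 0.0163 for PYGM and 0.0411 for UGP2 (limma). Against 173 genes called, a pseudocount of 1 gave 77, TPM gave 260, and leaving out single pigs gave between 86 (without LW90) and 261 (without LW82). Against 503 transcripts called, a pseudocount of 1 gave 227 and a minimum mean of 1 FPKM gave 181. The members' median log2 fold change was -0.30 with median-ratio size factors and -0.26 with quantile normalization. Of the other pathway genes, 1 was called when the transcript with the highest mean stood for the gene, and leaving out single pigs gave between 1 (without LW63, and also without LW90) and 4 (without LW70). In TPM the log2 fold changes turned to 0.065 for PHKA1, 0.045 for PRKAG3 and 0.011 for PPP1R3C. GYS1 turned to -0.19 with median-ratio size factors, -0.13 with quantile normalization, -0.12 with muscle marker scaling and -0.67 with the transcript of highest mean, which gave 0.61 for PYGM and 1.01 for PHKA1. With single pigs left out, log2 fold changes ran from -0.018 to 0.54 for GYG1, -0.077 to 0.10 for GYS1, -0.63 to 0.039 for GBE1, -0.40 to 0.25 for PHKA1, -0.19 to 0.82 for PHKG1, -0.49 to 0.46 for PRKAG3 and -0.38 to 0.13 for PPP1R3C. The sign turned without LW82 for GYG1, without LW63 or LW90 for GYS1 and PRKAG3, without LW70 or LW82 for GBE1, without LW119 or LW90 for PHKA1, and without LW70 or LW88 for PHKG1 and PPP1R3C. The cause of these changes was not tested. PYGM without its transcripts outside the RefSeq gene, an alternative chosen after seeing the data, stayed at -0.57. Those transcripts held at most 3.56% of its FPKM, so this alternative could hardly move it. No paired analysis was possible because the groups are different animals and no label pairs them. The depth behind each value is unknown, so its counting error is too.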
